A study of Rattus norvegicus with 20 samples.

Results

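The genes of the interferon response and of MHC class I antigen processing were examined in the dentate gyrus of epileptic rats. The list held 49 genes, chosen by symbol with earlier results of these data known. The wider lists below were chosen likewise, so their counts beside the shares of all probe sets are a description. The genes were grouped by role: interferon receptors, signal transducers and regulators, sensors of foreign RNA and DNA, antiviral effectors, guanylate-binding proteins, the ISG15 and ubiquitin enzymes, the immunoproteasome, and the peptide transporter with the class I light chain. Each gene was taken at its brightest probe set that carried a single gene symbol. Of the 49 genes, 45 had such a probe set, 3 of these (Ifit3, Rtp4 and Usp18) lay at or below the array background in more than 5 arrays and were left out, and 42 were measured, among 14589 genes tested in all. Ifnar2, Eif2ak2, Xaf1 and Parp14 were not analysed here, and the sensor Ddx58 was matched through its synonym Rig1.

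All rats were Sprague-Dawley, and the methods describe them as adult males. The 20 rats fell into 4 groups of 5: stimulated rats killed 7 d or 30 d after electrical stimulation of the amygdala, which triggers status epilepticus (SE) and later spontaneous seizures, and sham-operated controls matched to each time. According to the methods every rat, the controls included, carried an electrode in the left amygdala, the controls received no current, and diazepam was injected into stimulated rats to stop SE, so stimulation, SE and diazepam cannot be told apart. RNA of the left dentate gyrus, the side of the electrode, was hybridised to 1 Affymetrix Rat Gene 1.1 ST array per rat, and values are RMA expression levels on the log2 scale. The array background, taken here as the 20th percentile of all values, was 3.69.

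Interferons signal through paired receptors on the cell surface. Type I interferon activates a complex that holds STAT2 and IRF9 and binds the interferon-stimulated response element (ISRE) of target promoters, while interferon gamma acts through the gamma-activated site (GAS). The induced genes include sensors and restriction factors against viruses, and also the machinery of class I presentation: the immunoproteasome cuts proteins into peptides, the TAP transporter moves them into the endoplasmic reticulum, tapasin loads them, and beta-2-microglobulin is the light chain of every classical class I molecule. In brain, microglia and astrocytes respond to interferons strongly, and class I molecules are also found on neurons.

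The promoters of these genes were read first, because the list is named after a response that runs through 2 short DNA elements. RefSeq promoters of GRCr8, from 250 bases before to 50 bases after the gene start, were found for 39 of the 49 genes. The entries for Irf2, Ddx58, Dhx58, Adar, Zbp1, Ifit2, Mx2, Rtp4, Isg15 and Usp18 were missing. The ISRE core was searched as GAAA-NN-GAAA on both strands, so that it reads TTTC-NN-TTTC on the other one, and the GAS core as TTC-NNN-GAA, which reads the same on both strands. The ISRE core was present in 23 of the 39 promoters (59.0%), against 3.92% of all 33469 RefSeq promoters of the same length. The GAS core was present in 9 of the 39 (23.1%), against 8.87% of all promoters. A match describes letters in this window and is not a binding site.

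The stretches around the core are shown for the 8 genes that rose at 7 d and hold it. The core is in capitals, and a run longer than the core is a pair of overlapping cores.
Irf7 (GRCr8, chr1:205800053-205800122, - strand): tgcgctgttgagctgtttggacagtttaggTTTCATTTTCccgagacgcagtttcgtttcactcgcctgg
Ifitm3 (GRCr8, chr1:205541763-205541832, - strand): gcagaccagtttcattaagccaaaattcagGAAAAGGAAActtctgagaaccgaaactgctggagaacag
Lgals3bp (GRCr8, chr10:104127859-104127928, - strand): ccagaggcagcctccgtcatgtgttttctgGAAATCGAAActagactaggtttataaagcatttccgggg
Gbp2 (GRCr8, chr2:234005666-234005735, + strand): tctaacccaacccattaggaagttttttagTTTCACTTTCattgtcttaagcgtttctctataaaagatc
Gbp5 (GRCr8, chr2:233910913-233910982, + strand): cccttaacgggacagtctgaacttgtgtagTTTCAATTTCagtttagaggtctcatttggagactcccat
Tap1 (GRCr8, chr20:4668625-4668694, - strand): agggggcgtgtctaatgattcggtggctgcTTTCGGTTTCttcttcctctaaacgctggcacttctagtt
Tapbp (GRCr8, chr20:4967864-4967933, - strand): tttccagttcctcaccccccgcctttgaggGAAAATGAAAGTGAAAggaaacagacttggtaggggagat
B2m (GRCr8, chr3:129549150-129549219, + strand): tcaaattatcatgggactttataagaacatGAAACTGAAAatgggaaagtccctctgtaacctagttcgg

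The same core also stands in promoters of genes that did not pass the test, and 4 of them, from the effectors, the ubiquitin enzymes and the immunoproteasome, are shown for comparison.
Oas1a (GRCr8, chr12:41330395-41330464, + strand): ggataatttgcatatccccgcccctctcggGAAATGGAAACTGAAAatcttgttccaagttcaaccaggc
Bst2 (GRCr8, chr16:18255059-18255128, - strand): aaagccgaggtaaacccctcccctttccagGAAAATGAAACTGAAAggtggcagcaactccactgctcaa
Dtx3l (GRCr8, chr11:78320205-78320274, + strand): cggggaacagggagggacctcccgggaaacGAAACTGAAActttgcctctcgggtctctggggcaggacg
Psmb10 (GRCr8, chr19:50743326-50743395, - strand): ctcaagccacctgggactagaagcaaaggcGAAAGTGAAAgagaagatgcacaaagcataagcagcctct

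The first base of these cores lay between -150 (B2m) and 10 (Dtx3l), counted from the gene start as 0. Among genes with a promoter entry, the core was found in 8 of 15 that rose at 7 d (53.3%) and in 11 of 19 that were measured and did not pass (57.9%). Ifngr1, Mx1, Sp100, Trim25, Parp9 and Psmb9, which rose, held neither core in this window. Several of the genes are neighbours. The starts of Tap1 and Psmb9 are 457 bases apart on opposite strands of chromosome 20, and those of Parp9 and Dtx3l are 1214 bases apart on opposite strands of chromosome 11.

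At 7 d the changes were small and mostly upward. Of the 42 genes, 16 rose in stimulated rats and 0 fell at an adjusted p under 0.05, while 4.02% of all 15800 probe sets tested rose and 2.46% fell. As the list was chosen with earlier results of these data known, this comparison is a description. The genes that rose were Ifngr1, Irf7, Irf9, Ifitm3, Mx1, Sp100, Lgals3bp, Gbp2, Gbp5, Isg15, Trim25, Parp9, Psmb9, Tap1, Tapbp and B2m. The changes of all 42 genes ran from -0.24 to 1.05 on the log2 scale with a median of 0.27, beside a median of 0.0018 over all probe sets, and 38 were positive. In 13 of the 42 genes all 5 stimulated rats lay above all 5 sham-operated rats, against 3.81% of all probe sets. At an unadjusted p under 0.05 stood 32 of the 42 genes and 18.4% of all probe sets. Bulk tissue cannot tell more cells of a type from more RNA per cell, and with 5 arrays a group the number of rats limits the precision.

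At 30 d 1 gene passed the test. B2m rose, and 0 of the 42 genes fell, where 0.835% of all probe sets rose and 0.899% fell. In 0 of the 42 genes did all stimulated rats lie above all controls, against 1.84% of all probe sets. At an unadjusted p under 0.05 stood 8 of the 42 genes and 11.4% of all probe sets. The median change was 0.11, beside -0.0064 over all probe sets, 38 genes were again positive, and 36 were positive at both times. Averaged over both times, 14 genes rose and 0 fell, against 5.59% and 4.46% of all probe sets. These 14 were Ifngr1, Dhx58, Ifitm3, Mx1, Sp100, Lgals3bp, Gbp2, Gbp5, Trim25, Parp9, Psmb9, Tap1, Tapbp and B2m.

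**Figure D1:**
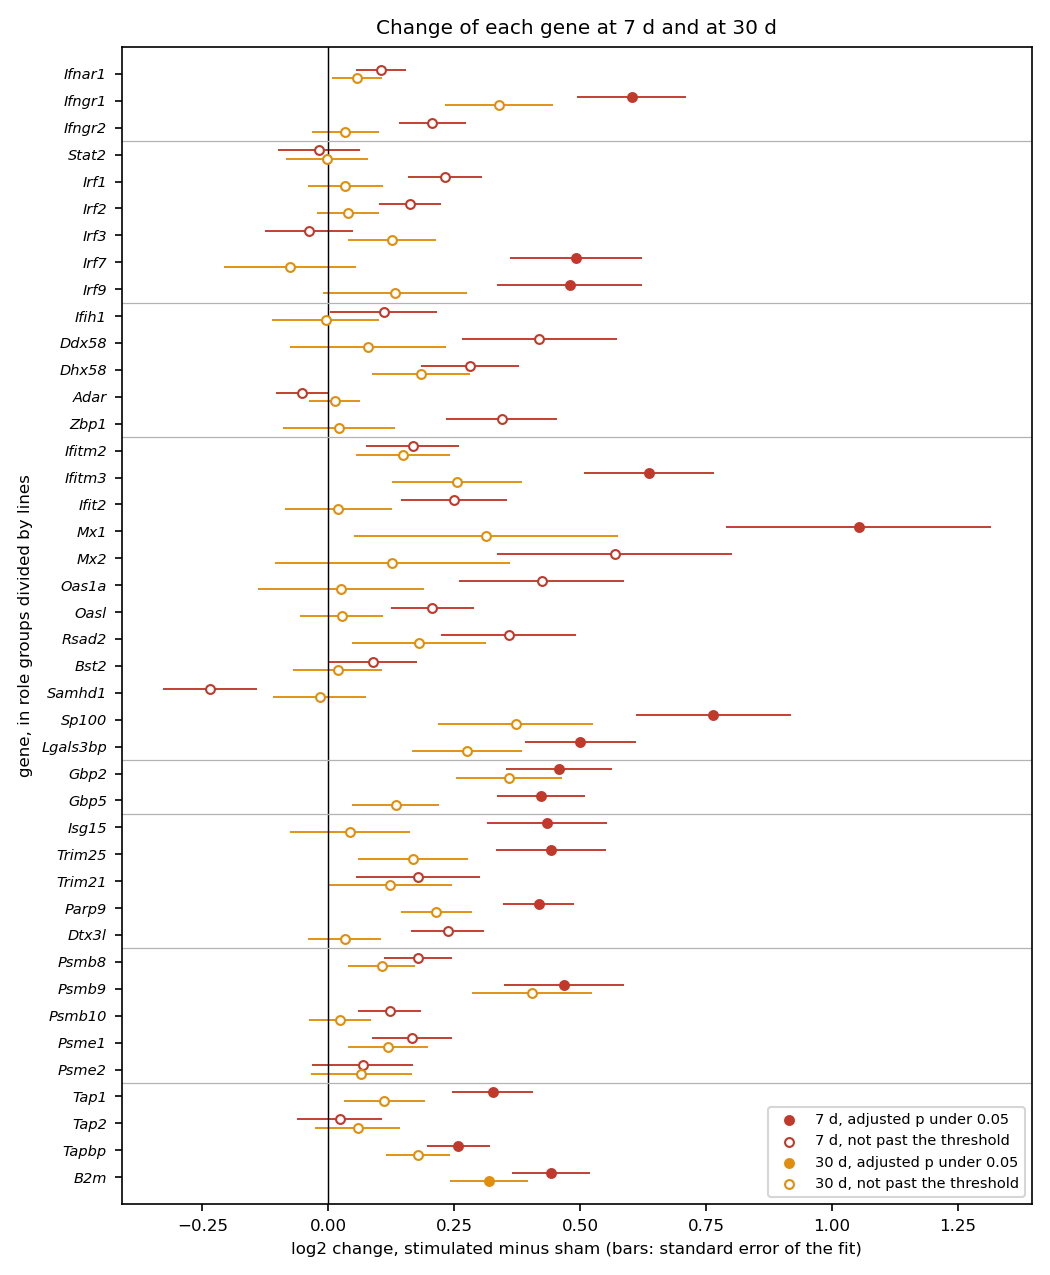
Log2 change of each of the 42 genes, stimulated minus sham-operated, at 7 d (red) and at 30 d (orange), with the standard error of the fit as bars and filled points where the adjusted p was under 0.05. At 7 d 16 points are filled, led by Mx1 at 1.05, and at 30 d the single filled point is B2m at 0.32.

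Among the receptors, Ifngr1, the ligand-binding chain of the interferon gamma receptor, was measured at 8.17, 8.11, 7.95, 7.91 and 8.47 in stimulated rats 1 to 5 at 7 d. Sham-operated rats of that time stood at 7.45, 7.68, 7.53, 7.60 and 7.35. All stimulated rats were above all controls, a log2 change of 0.60 ± 0.11 (SE, adjusted p = 0.00149), or 1.52-fold. At 30 d the stimulated values were 8.06, 8.09, 7.70, 7.51 and 7.94 and the sham values 7.56, 7.41, 7.57, 7.43 and 7.66, so that rat 4 fell among the controls, and the change of 0.34 ± 0.11 did not pass (adjusted p = 0.137). Averaged over both times the change was 0.47 ± 0.08 (adjusted p = 0.000277).

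Ifngr2, the signalling chain of the same receptor, overlapped between groups at 7 d: stimulated rats stood at 8.09, 8.27, 8.26, 8.35 and 8.51 and sham rats at 8.17, 7.99, 8.11, 8.11 and 8.08, a change of 0.21 ± 0.07 (adjusted p = 0.067). Ifnar1, a chain of the type I receptor, changed by 0.10 ± 0.05 at 7 d and 0.06 ± 0.05 at 30 d, neither past the threshold.

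Of the 6 signal transducers and regulators, 2 rose at 7 d. Irf7, the amplifier of type I interferon production, was at 5.21, 5.34, 5.47, 5.08 and 5.92 in stimulated rats and between 4.68 and 5.10 in sham rats at 7 d. Rat 4 of the stimulated group lay just under the highest control, and the change was 0.49 ± 0.13 (adjusted p = 0.0247). This call was lost in 8 of 31 alternative settings (adjusted p up to 0.0776). Among them were array weights, no filter, only the groups compared and unmoderated statistics. The others left out sham rat 2 or 4 or stimulated rat 3 or 5 of 7 d. At 30 d Irf7 was at 4.93, 5.21, 4.74, 4.58 and 5.02 after stimulation and at 5.11, 4.92, 5.10, 4.74 and 4.98 in controls, a difference of -0.08 ± 0.13 (adjusted p = 0.908) with the groups interleaved.

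Irf9, the DNA-binding partner of STAT2, stood at 6.61, 6.77, 6.98, 6.57 and 7.25 in stimulated rats at 7 d and at 6.38, 6.10, 6.45, 6.46 and 6.38 in controls. The groups did not overlap, and the change of 0.48 ± 0.14 lay close to the threshold (adjusted p = 0.0483). This call was lost in 18 of 31 alternative settings, with adjusted p up to 0.16, among them the fits without any 1 of the 5 sham rats of 7 d, without stimulated rat 2, 3 or 5 of 7 d, and without 3 of the rats of 30 d (sham rat 2, stimulated rat 1 or 5). Irf1, an activator induced by interferon gamma, was measured at 5.06 to 5.51 in stimulated and 4.92 to 5.09 in sham rats at 7 d, a change of 0.23 ± 0.07 (adjusted p = 0.0655). Stat2, a signal transducer of type I interferon, and Irf3, which starts interferon production, had changes of -0.02 and -0.04, and Irf2, a repressor of interferon genes, of 0.16.

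None of the 5 measured sensors passed the test at 7 d. Their changes were 0.42 for Ddx58, which recognises viral RNA ends, 0.34 for Zbp1, a sensor of Z-form nucleic acid, 0.28 for Dhx58, 0.11 for Ifih1, a sensor of long double-stranded RNA, and -0.05 for the RNA-editing enzyme Adar. Dhx58, a regulator of both RNA sensors, was at 4.63, 4.77, 4.88, 4.52 and 5.25 in stimulated rats at 7 d against 4.44, 4.46, 4.68, 4.52 and 4.55 in controls. Over both times together it rose by 0.23 ± 0.07 (adjusted p = 0.0325), a call lost in 12 of 30 settings (adjusted p up to 0.0654), among them the fits without sham rat 1, 2 or 4 or stimulated rat 3 of 7 d, or without sham rat 4 or 5 or stimulated rat 1, 2, 3 or 5 of 30 d. Zbp1 at 7 d was at 4.18, 4.55, 4.40, 4.31 and 4.84 after stimulation and at 4.11, 4.09, 4.20, 4.01 and 4.16 in controls, so that 1 stimulated rat lay among the controls (adjusted p = 0.0684).

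The widest changes were those of antiviral effectors, of which 4 of 12 measured rose at 7 d. Mx1, a GTPase that blocks viral replication, had the largest change of the 42 genes. It was at 4.60, 4.95, 5.22, 4.28 and 6.25 in stimulated rats at 7 d and between 3.91 and 4.11 in the 5 controls. Every stimulated rat was above every control, rat 5 far above the others, and the change was 1.05 ± 0.26 (adjusted p = 0.0161), or 2.07-fold. With unmoderated statistics or no filter the adjusted p was above 0.05, up to 0.0534. At 30 d stimulated rats 1 and 2 stood at 4.97 and 4.86 while rats 3, 4 and 5, at 3.98, 3.87 and 4.15, lay within the range of the controls, 3.77 to 4.38. The 30 d change was 0.31 ± 0.26 (adjusted p = 0.738). In sham rats Mx1 lay near the array background of 3.69.

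Sp100, a nuclear body protein that restricts viral genomes, was at 6.30, 6.42, 6.62, 5.89 and 6.83 in stimulated rats at 7 d. Controls stood at 5.57, 5.68, 5.66, 5.75 and 5.58. The groups did not overlap and the change was 0.76 ± 0.15 (adjusted p = 0.00348), with 0.37 ± 0.15 at 30 d (adjusted p = 0.311). Ifitm3, a membrane protein that blocks viral entry, ran from 6.70 to 7.56 in stimulated rats and from 6.22 to 6.55 in controls at 7 d, a change of 0.64 ± 0.13 (adjusted p = 0.00351) without overlap. Lgals3bp, a secreted glycoprotein that binds galectins, was at 7.50, 7.21, 7.43, 6.98 and 7.58 after stimulation and 6.82, 6.94, 6.81, 6.97 and 6.65 in controls at 7 d, where rat 4, at 6.98, barely exceeded the highest control, and it rose by 0.50 ± 0.11 (adjusted p = 0.00676).

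The other effectors gave values without a call. Changes at 7 d were 0.57 for Mx2, a relative of Mx1, 0.42 for Oas1a, which makes the activator of an RNA-cutting enzyme, 0.36 for Rsad2 (viperin), 0.25 for Ifit2, 0.21 for Oasl, 0.17 for Ifitm2 and 0.09 for Bst2, which tethers virus particles. Samhd1, which depletes nucleotides, had the lowest change of the 42 genes. Its values at 7 d were 5.61, 5.79, 5.74, 5.39 and 5.92 after stimulation and 5.84, 6.06, 5.69, 6.07 and 5.96 in controls, a change of -0.24 ± 0.09 (adjusted p = 0.156). Probe sets of related genes could share signal, as for Ifitm2 and Ifitm3, Mx1 and Mx2, or the Oas1 genes, and their sequences were not compared.

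Both guanylate-binding proteins, interferon-gamma-induced GTPases that attack intracellular microbes, rose at 7 d. Gbp2 stood at 4.96, 5.15, 5.28, 4.94 and 5.52 in stimulated rats and at 4.70, 4.77, 4.67, 4.84 and 4.59 in controls, with no overlap (0.46 ± 0.10, adjusted p = 0.00892). At 30 d it was at 5.31, 5.26, 4.94, 5.02 and 5.36 against 4.77, 4.81, 5.09, 4.62 and 4.80, where sham rat 3 lay within the stimulated range and the change of 0.36 ± 0.10 did not pass (adjusted p = 0.0928). Gbp5 ran from 5.28 to 5.88 in stimulated rats and from 4.96 to 5.18 in controls at 7 d, a change of 0.42 ± 0.09 (adjusted p = 0.00427), and changed by 0.13 ± 0.09 at 30 d.

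In the ISG15 and ubiquitin group 3 of 5 measured genes rose at 7 d. Parp9, an ADP-ribosyltransferase partner of the ubiquitin ligase Dtx3l, had tight controls: 4.89, 4.85, 4.85, 4.88 and 4.85 at 7 d. Stimulated rats were at 5.32, 5.29, 5.33, 5.03 and 5.43, above each control, and the change was 0.42 ± 0.07 (adjusted p = 0.000927). Dtx3l, its divergent neighbour, changed by 0.24 ± 0.07 and fell just short (adjusted p = 0.0513), with stimulated rat 4 among the controls.

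Trim25, the ubiquitin ligase that activates the RNA sensor RIG-I, stood at 6.48, 6.66, 6.70, 6.37 and 7.17 after stimulation and 6.29, 6.07, 6.45, 6.16 and 6.21 in controls at 7 d (0.44 ± 0.11, adjusted p = 0.0153). Stimulated rat 4 lay below the highest control. With only the groups compared Trim25 did not pass at 7 d (adjusted p = 0.0763). Isg15, the ubiquitin-like protein attached to other proteins after interferon, ran from 4.31 to 5.20 in stimulated rats and from 4.09 to 4.39 in controls (0.43 ± 0.12, adjusted p = 0.0286), and this call was lost in 9 of 31 settings (adjusted p up to 0.117), among them the fits without sham rat 1, 2, 4 or 5 or stimulated rat 3 or 5 of 7 d. Trim21, an antibody receptor inside cells, changed by 0.18 ± 0.12 (adjusted p = 0.491).

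**Figure D2:**
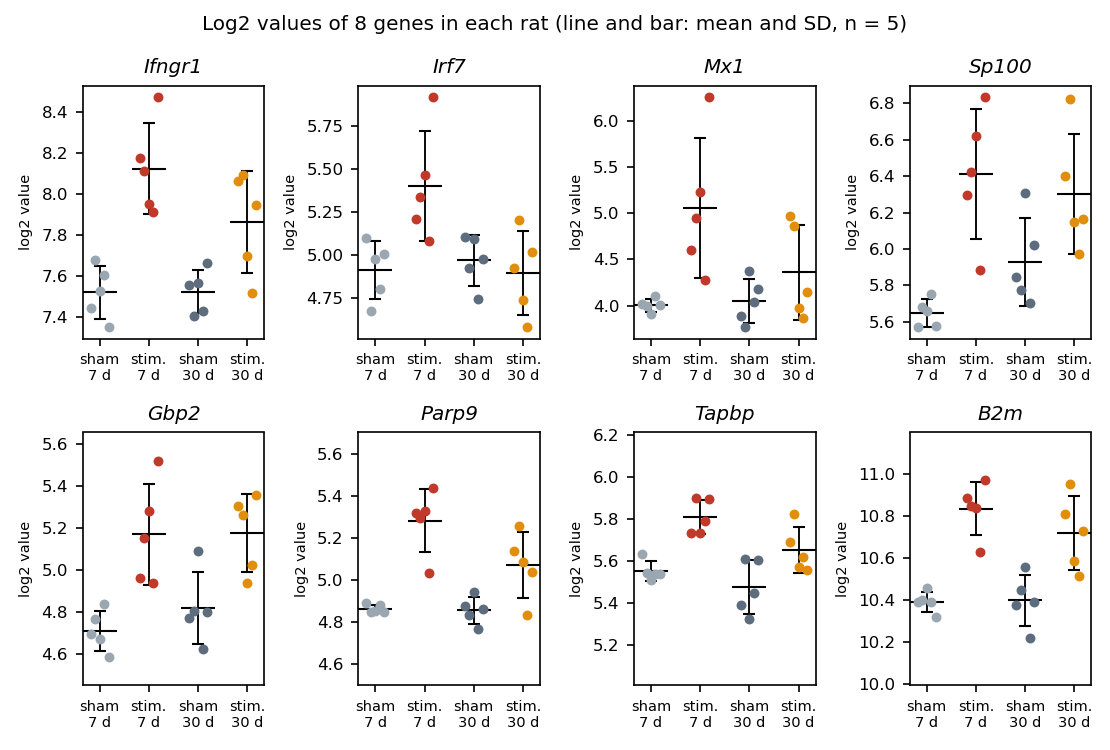
Log2 values of 8 genes in each of the 20 rats, by group, with the mean and SD of each group (n = 5) and a separate vertical scale per gene. At 7 d the stimulated rats lie above all controls except in Irf7, and at 30 d each of the 8 genes overlaps between the groups.

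For class I processing, the immunoproteasome was compared with the constitutive subunits it replaces. Psmb9, the inducible counterpart of Psmb6, was at 4.90, 4.71, 4.78, 4.80 and 5.19 in stimulated rats at 7 d and at 4.49, 4.40, 4.33, 4.39 and 4.43 in controls. There was no overlap, and Psmb9 rose by 0.47 ± 0.12 (adjusted p = 0.0184). It did not pass with no filter, with unmoderated statistics or without stimulated rat 5 of 7 d (adjusted p up to 0.0669). At 30 d stimulated rats stood at 5.04, 5.58, 4.70, 4.79 and 4.83 and controls at 4.48, 4.73, 4.47, 4.62 and 4.61, where rat 2 was highest, rat 3 lay below the highest control, and the change of 0.40 ± 0.12 did not pass (adjusted p = 0.0984).

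Psmb8 and Psmb10, the counterparts of Psmb5 and Psmb7, did not pass at 7 d. Psmb8 was at 4.12, 4.25, 4.08, 4.28 and 4.46 after stimulation and 4.06, 4.02, 4.07, 4.09 and 4.07 in controls, a change of 0.18 ± 0.07 (adjusted p = 0.129), near the background level throughout. Psmb10 changed by 0.12 ± 0.06 and the activator subunits Psme1 and Psme2 by 0.17 ± 0.08 and 0.07 ± 0.10. A second probe set of Psme2 gave 0.0066 at 7 d and 0.0077 at 30 d.

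The constitutive subunits showed no change past the threshold at either time. At 7 d the differences were -0.09 ± 0.10 for Psmb5, -0.02 ± 0.10 for Psmb6 and 0.01 ± 0.06 for Psmb7, and at 30 d they were 0.01, 0.06 and 0.04. Of 16 measured genes of the constitutive proteasome, 0 were called at 7 d or at 30 d, 1 of them at an unadjusted p under 0.05 at 7 d and 0 at 30 d, against 18.4% and 11.4% of all probe sets. Their median change at 7 d was 0.06, against 0.17 for the 5 genes of the immunoproteasome and its activator. Averaged over both times, 1 of the 16 constitutive genes rose and 0 fell. Of the 5 genes of the immunoproteasome and its activator, 1 rose and 0 fell, against 5.59% and 4.46% of all probe sets. The difference between subunits was not tested.

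**Figure D3:**
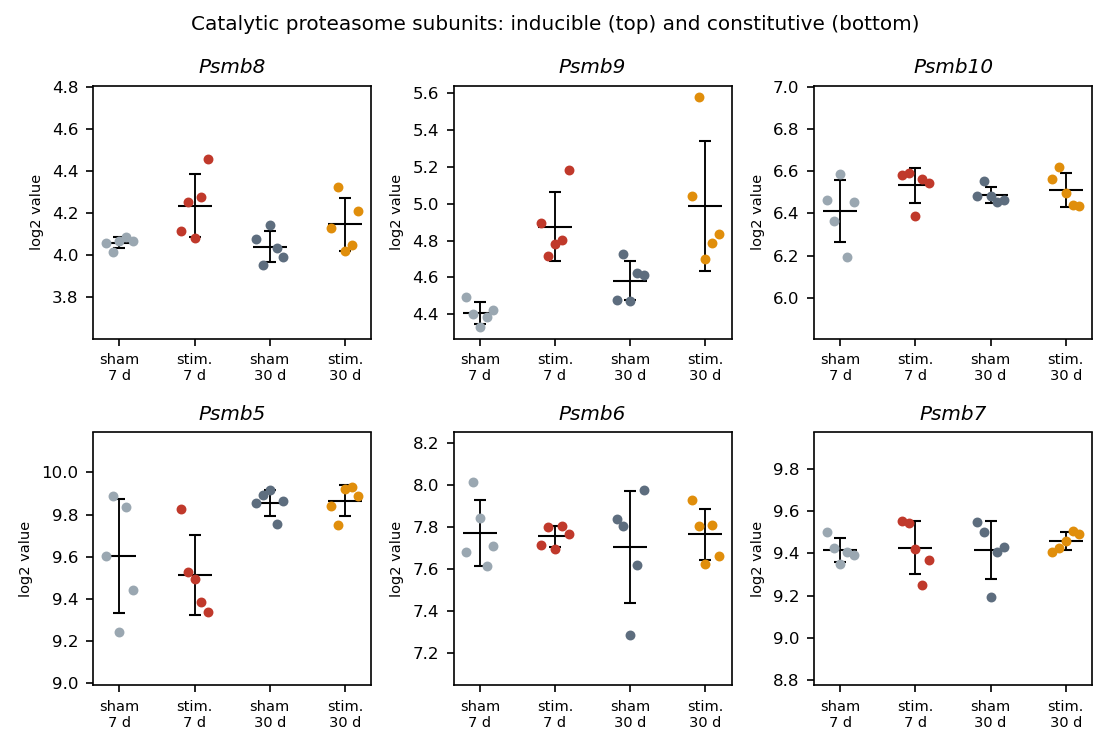
Log2 values of the inducible catalytic subunits Psmb8, Psmb9 and Psmb10 (top) and of the constitutive Psmb5, Psmb6 and Psmb7 (bottom) in each rat, with the mean and SD of each group (n = 5). Psmb9 is the subunit whose groups separate at 7 d, and its highest value, 5.58, belongs to stimulated rat 2 at 30 d.

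Of the 4 genes of peptide loading and the light chain, 3 rose at 7 d. Tap1, a subunit of the peptide transporter, rose by 0.33 ± 0.08 at 7 d (adjusted p = 0.0154), with stimulated rats between 5.23 and 5.67 and controls between 4.85 and 5.19. It did not pass with only the groups compared, or without sham rat 2 or stimulated rat 5 of 7 d (adjusted p up to 0.0551). Tap2, its partner subunit, changed by 0.02 ± 0.08 (adjusted p = 0.932). Tapbp (tapasin), which bridges the transporter and class I molecules, was at 5.73, 5.90, 5.73, 5.79 and 5.89 after stimulation and 5.63, 5.54, 5.51, 5.54 and 5.54 in controls. It rose by 0.26 ± 0.06 (adjusted p = 0.0141), without overlap.

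B2m was the brightest of the 42 genes and the one called at both times. At 7 d it stood at 10.89, 10.85, 10.84, 10.63 and 10.97 in stimulated rats and at 10.39, 10.40, 10.46, 10.39 and 10.32 in controls, so that the lowest stimulated rat was above the highest control. The change was 0.44 ± 0.08 (adjusted p = 0.00125), or 1.36-fold. At 30 d it was at 10.81, 10.95, 10.58, 10.51 and 10.73 after stimulation and at 10.37, 10.45, 10.55, 10.22 and 10.39 in controls, with rat 4 just below the highest control. The 30 d change was 0.32 ± 0.08 (adjusted p = 0.0357), and averaged over both times B2m rose by 0.38 ± 0.05 (adjusted p = 8.68e-05).

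The call of B2m at 30 d, and with it the count of 1, was lost in 11 of 31 settings, among them leaving out sham rat 1, 2, 4 or 5 or stimulated rat 1, 2 or 5 of 30 d, each of which gave 0 genes. Without stimulated rat 2 the median 30 d change of the 42 genes was 0.05. Leaving out sham rat 3 or stimulated rat 3 of 30 d, or stimulated rat 5 of 7 d, gave 2 genes, and leaving out stimulated rat 4 of 30 d gave 3.

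Directly comparing the change at 30 d with that at 7 d, 0 of the 42 genes passed in limma, as did 0.0% of all probe sets. At an unadjusted p under 0.05, 4 of the 42 genes (9.52%) and 682 of all probe sets (4.32%) differed. The estimates were smaller at 30 d in 37 of the 42 genes, with a median difference of -0.18 beside -0.01 over all probe sets, and of -0.11 without stimulated rat 5 of 7 d. The rats at 30 d are other animals than those at 7 d, and over the 42 genes the changes at both times had a Pearson r of 0.65 and a Spearman rho of 0.63, as a description over genes that share arrays. Of the 16 genes called at 7 d, 15 were positive at 30 d, the exception being Irf7, and 8 of the 16 had an unadjusted p under 0.05 there. Of all 635 probe sets that rose at 7 d, 96.1% were positive at 30 d and 56.7% had such a p.

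Among controls no gene of the list passed the test between times: between sham rats at 30 d and at 7 d limma called 0 of 42 after adjustment, and 0.0% of all probe sets. At an unadjusted p under 0.05 stood 0 of the 42 genes and 13.3% of all probe sets. Between stimulated rats, Ifngr2, Irf7, Irf9, Mx2 and Trim25 were lower at 30 d than at 7 d, and Samhd1 was higher, while 5.87% of all probe sets were lower and 7.66% higher. Irf7 fell by 0.51 (adjusted p = 0.0172), Ifngr2 by 0.27 (adjusted p = 0.0133), Irf9 by 0.43 (adjusted p = 0.0484), Mx2 by 0.72 (adjusted p = 0.0448) and Trim25 by 0.35 (adjusted p = 0.0373). Samhd1 was 0.28 higher (adjusted p = 0.0495). Between sham rats the changes over the alternative settings were -0.44 to -0.12 for Mx2, -0.14 to -0.08 for Ifngr2 and -0.18 to -0.0027 for Irf9. They were -0.12 to -0.02 for Trim25, -0.01 to 0.11 for Irf7 and 0.0045 to 0.12 for Samhd1. Ifngr2 in stimulated rats at 30 d was at 8.07, 8.06, 7.91, 7.91 and 8.15, beside sham rats between 7.91 and 8.10, so that rats 1, 2 and 5 lay near the lowest rats of 7 d. Irf9 was then at 6.60, 6.76, 6.14, 6.18 and 6.32, with rats 1 and 2 within the range of the stimulated rats of 7 d. Trim25 was at 6.31, 6.56, 6.19, 6.27 and 6.30, where rat 2 alone reached that range. Samhd1 was at 5.94, 6.07, 6.01, 5.96 and 5.87, and its sham rats of 30 d lay between 5.76 and 6.21, around the stimulated rats.

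Mx2 at 7 d stood at 5.88, 6.36, 6.49, 5.52 and 6.77 in stimulated rats, and at 30 d at 5.97, 6.06, 5.23, 5.25 and 4.92, so the groups overlapped. Sham rats of 30 d ran from 4.73 to 5.74 in Mx2.

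Ifngr2 kept this call in all 31 settings (adjusted p up to 0.0437), while the other time calls varied with the rats included. Without stimulated rat 5 of 7 d, 1 gene was lower at 30 d. Leaving out stimulated rat 2 or 3 of 7 d, or stimulated rat 3, 4 or 5 of 30 d, left 2 genes lower, and leaving out sham rat 1 or 5 of 7 d, sham rat 2 of 30 d or stimulated rat 1 of 30 d left 3. Without stimulated rat 1 of 7 d the count was 13, without rat 4 of 7 d it was 9, without rat 2 of 30 d it was 11 and without sham rat 3 of 30 d it was 8. The call of Samhd1 was lost in 13 of the 20 fits that left out 1 rat, namely without sham rats 1 or 5 of 7 d, sham rats 1 or 2 of 30 d, stimulated rats 1 to 4 of 7 d or any stimulated rat of 30 d. Irf9 and Mx2 each lost this call in 18 of 31 settings (adjusted p up to 0.146 and 0.134), Trim25 in 11 (up to 0.105) and Irf7 without stimulated rat 5 of 7 d (0.0517).

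Rats differed from one another along the whole list. At 7 d stimulated rat 5 had the highest value of its group in 35 of the 42 genes and rat 4 the lowest in 24. At 30 d stimulated rat 2 was highest in 31 genes and rat 4 lowest in 21. Stimulated rats 1 to 5 of 7 d exceeded all controls of that time in 21, 33, 31, 20 and 34 genes, and those of 30 d in 26, 31, 6, 4 and 13. Such counts per rat were not taken over all probe sets, so they describe the list and are not set against the whole array.

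The mean of the 42 genes over the controls of its time was 0.18, 0.28, 0.33, 0.11 and 0.62 in stimulated rats 1 to 5 at 7 d, and between -0.03 and 0.03 in controls. At 30 d it was 0.21, 0.33, 0.02, -0.02 and 0.08, and between -0.08 and 0.10 in controls, with sham rat 3 highest in 22 genes. At 7 d the SD of a gene was larger among stimulated than among sham rats in 37 of the 42 genes, against 54.4% of all probe sets, with a median SD of 0.22 and 0.10. Mx1 had the largest SD among stimulated rats at both times, 0.76 and 0.51. Without stimulated rat 5 of 7 d, 11 genes rose at that time with a median change of 0.19, and Irf7, Irf9, Isg15, Psmb9 and Tap1 were the ones lost.

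**Figure D4:**
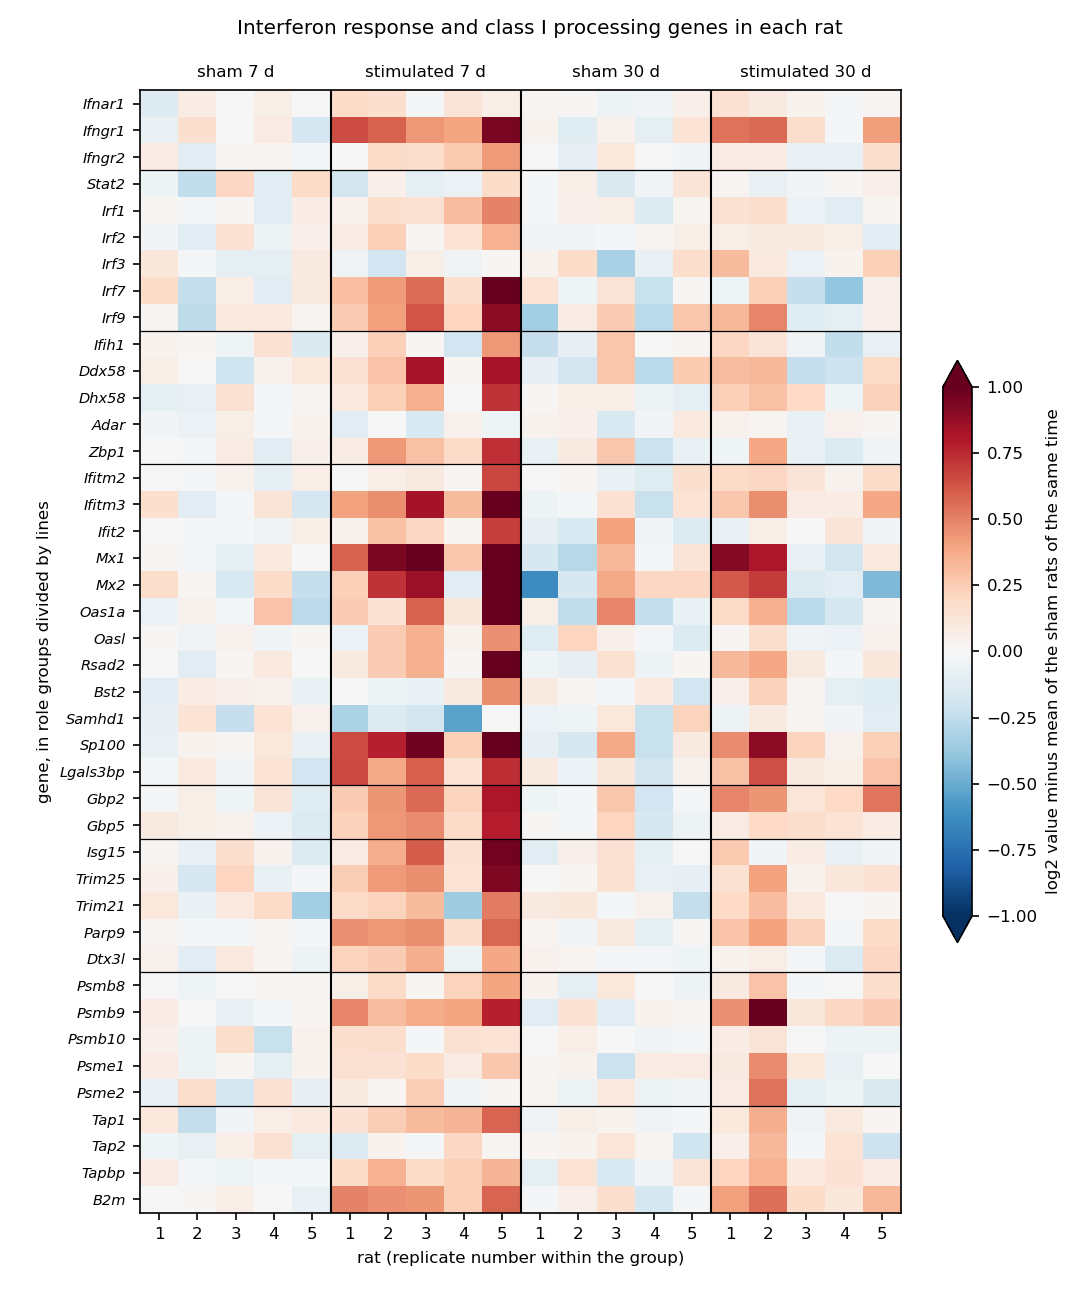
Each cell is the log2 value of a gene (rows, in role groups) in a rat (columns, by group and replicate number) minus the mean of the sham-operated rats of the same time, from blue (lower) to red (higher), with values beyond 1 shown at the end of the scale. Stimulated rat 5 at 7 d is highest of its group in 35 of the 42 genes and stimulated rat 2 at 30 d in 31, counts that were not taken over all probe sets.

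Markers of microglia and macrophages were higher as well. Of 14 such markers 12 rose at 7 d and 5 at 30 d, where 4.02% and 0.835% of all probe sets rose. The median changes of the 14 markers were 1.03 and 0.63. Their mean over the controls of the time was 0.92, 0.95, 0.90, 0.58 and 1.56 in stimulated rats 1 to 5 at 7 d and 0.86, 1.26, 0.38, 0.14 and 0.55 at 30 d, and lay between -0.14 and 0.10 in controls. Stimulated rat 5 of 7 d was thus highest and rat 4 lowest in both means. Rats 1 to 3 of 7 d stood in different orders. Rat 3 lay above rats 1 and 2 in the mean of the 42 genes (0.33) and below them in that of the markers (0.90). At 30 d the stimulated rats had the same order in both means. The part of the microglial markers in the change of the interferon genes was not tested.

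**Figure D5:**
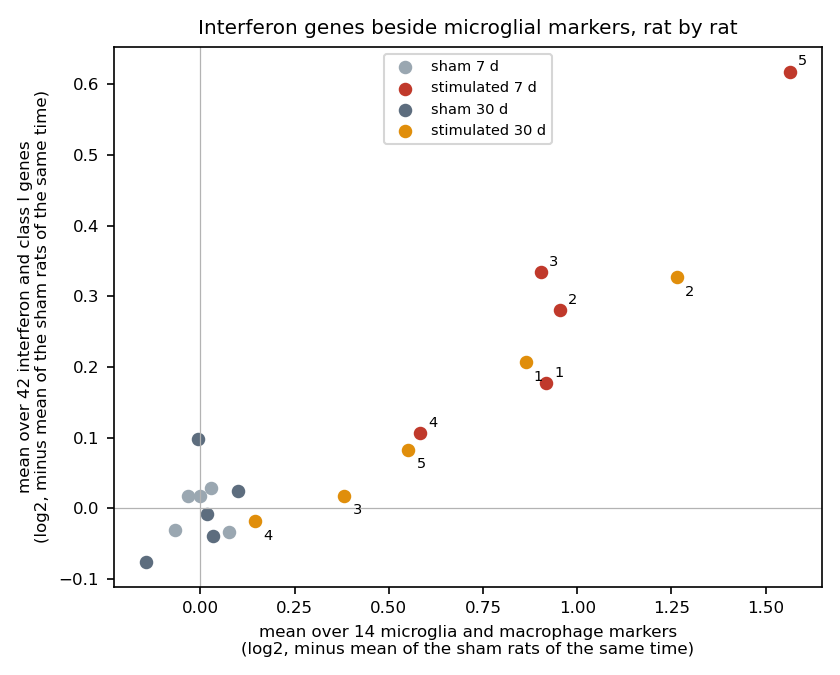
Mean of the 42 interferon and class I genes (vertical axis) against the mean of 14 microglia and macrophage markers (horizontal axis) in each rat, both on the log2 scale minus the mean of the sham-operated rats of the same time, with replicate numbers beside stimulated rats. Stimulated rat 5 at 7 d lies highest on both axes (0.62 and 1.56), and stimulated rats 3, 4 and 5 at 30 d lie among the controls on the vertical axis.

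Markers of other cell types gave fewer calls. Beside their counts, 4.02% of all probe sets rose and 2.46% fell at 7 d, and 0.835% rose and 0.899% fell at 30 d. Of 11 markers of T and natural killer cells 1 rose at each time, Cd4 by 0.97 at 7 d (adjusted p = 0.0214) and 1.05 at 30 d (adjusted p = 0.0347), a gene that rat macrophages and microglia also express. Cd3e, which marks all T cells, changed by 0.01 ± 0.18 and 0.22 ± 0.18. Of 8 markers of monocytes, neutrophils and plasmacytoid dendritic cells 0 rose and 0 fell at either time, with 0 and 1 at an unadjusted p under 0.05, and their mean in stimulated rats lay between -0.01 and 0.06 at 7 d and between -0.06 and 0.05 at 30 d. Of 9 astrocyte markers Gfap (by 1.13) and Aqp4 (by 0.37) rose at 7 d and Gfap at 30 d, but 5 of the 9 had negative changes at 7 d, with a median of -0.0082, and 0 at 30 d. For the labelled tissue, 9 of 10 granule cell markers were measured, with the defining transcription factor Prox1 at a mean of 9.53 over the 20 arrays, and at 7 d 3 of them fell and 1 (Bdnf) rose. Markers of CA1 pyramidal cells and of oligodendrocytes were measured as well (4 of 5 and 6 of 7), with 0 called against controls. Per rat at 30 d, the CA1 mean spanned -0.43 to 0.68 after stimulation and -0.32 to 0.36 in controls. Rat 5 of the stimulated 7 d group was highest of its group for CA1 (0.24) and for choroid plexus and ependyma (0.57). That rat was not highest for oligodendrocytes (0.07), endothelium and pericytes (-0.005) or B and plasma cells (-0.11). The part of these marker differences in the interferon genes was not tested.

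Other genes of the pathway were taken from wider lists. Of 43 measured genes among 61 other interferon-induced genes, 12 rose and 0 fell at 7 d, against 4.02% and 2.46% of all probe sets. At 30 d 0 were called, and 4 (9.3%) had an unadjusted p under 0.05, against 11.4% of all probe sets. On average over both times 12 rose and 0 fell, against 5.59% and 4.46% of all probe sets. The median change of the 43 genes was 0.20 at 7 d and 0.08 at 30 d, beside 0.0018 and -0.0064 over all probe sets. Slfn13, a transfer RNA-cutting enzyme matched through the array symbol Slfn9, was at 5.87, 5.69, 6.08, 5.54 and 6.67 in stimulated rats at 7 d and at 4.26, 4.56, 4.80, 4.67 and 4.44 in controls, a change of 1.43 ± 0.24 (adjusted p = 0.001). Ifi47, an interferon-induced GTPase, rose by 0.76 ± 0.17, Ifi30, a lysosomal reductase of antigen processing, by 0.62 ± 0.16, and the RNA-editing enzyme Apobec1 by 0.62 ± 0.12.

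A list of the interferons with the receptor chain of interferon lambda, Ifnlr1, gave no call. Of its 12 genes, 6 were measured (Ifna4, Ifna5, Ifnb1, Ifng, Ifnl3 and Ifnlr1), and 0 were called at either time (1 at an unadjusted p under 0.05 at 7 d and 0 at 30 d). Ifnb1, the first type I interferon made in most cells, changed by 0.11 ± 0.04 at 7 d (adjusted p = 0.154) and 0.06 ± 0.04 at 30 d, Ifna4 by 0.19 ± 0.09 and 0.06 ± 0.09. Ifnb1 values lay between 3.99 and 4.27 over all 20 rats, near the array background.

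In the list of interferon induction and signalling, 4 of 13 measured genes rose at 7 d and 0 fell, against 4.02% and 2.46% of all probe sets. Irf8, a regulator of myeloid cells and microglia, was at 5.91, 6.29, 5.89, 5.93 and 7.49 in stimulated rats and between 4.78 and 5.18 in controls (1.32 ± 0.24, adjusted p = 0.0018). Tlr7, a receptor for single-stranded RNA, rose by 1.04 ± 0.20 (adjusted p = 0.0028), Tlr3, its counterpart for double-stranded RNA, by 0.82 ± 0.14 (adjusted p = 0.00115), and Irf5, which acts downstream of such receptors, by 0.60 ± 0.13 (adjusted p = 0.00562). Tlr3 was also called at 30 d (0.57 ± 0.14, adjusted p = 0.0388).

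Class I heavy chains did not move as a block. Of 29 measured genes of heavy chains and their assembly, 2 rose and 2 fell at 7 d, against 4.02% and 2.46% of all probe sets. At an unadjusted p under 0.05 stood 11 of the 29 at 7 d, against 18.4% of all probe sets. At 30 d 0 were called and 2 had such a p, against 11.4%. On average over both times 4 rose and 2 fell, against 5.59% and 4.46%. Tapbpl, a tapasin relative that edits peptides, rose by 0.32 ± 0.08 at 7 d (adjusted p = 0.0209). RT1-S3 changed by 0.33 ± 0.14 at 7 d and 0.42 ± 0.14 at 30 d and was called on average over both times (0.37 ± 0.10, adjusted p = 0.0185). RT1-M6-1 and RT1-M6-2, a pair of nonclassical class I genes, fell at 7 d by 0.52 ± 0.11 and 0.87 ± 0.19 (adjusted p = 0.00662 for each), with all stimulated rats below all controls. RT1 genes are near-copies of one another, and their probe sets could share signal.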

How the data were processed

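Expression in the left dentate gyrus was measured in 20 rats, 5 in each of 4 groups, which the labels of treatment, days and replicate define. The labels describe the replicates as biological. The deposited values are on the log2 scale. The authors obtained them by RMA, which corrects for background, equalises the arrays by quantiles and summarises each probe set, in oligo 1.22.0, per the submitters' processing notes. RMA pulls all arrays to 1 distribution, so a change shared by most genes would not show. Array medians lay between 5.22 and 5.31, arrays correlated at 0.9816 to 0.9978, and no pair of arrays held identical values. Of an array's values 79.0% to 80.9% exceeded the background, a share largely set by taking the 20th percentile as background.

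The background was taken as the 20th percentile of all values (3.69), lower values were set to that level, and the fit dropped any probe set that stayed at that level in more than 5 of the arrays. The methods of the paper instead took the median of antigenomic probes as background. Of 29214 probe sets, 18644 carried 1 gene symbol and 962 several, and 15800 were tested. Differences were fitted in R 4.3.3 with limma 3.58.1 (lmFit, eBayes) as 1 model of the 4 groups, with Benjamini-Hochberg adjustment across the 15800 probe sets at a threshold of 0.05. The methods name a one-way ANOVA, and its nearest form, the unmoderated statistics of the same model, was an alternative. The fit was tested on simulated data.

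The genes and lists were chosen with earlier results of these data known. Genes given in full were the pair with the smallest p in the average change of each role group, those called at 30 d or between times, the gene with the largest SD among stimulated rats of each time, and up to 4 genes of each other list. Values of the other genes of the list were given beside them. The alternatives were other filters, scalings, variance models, probe set rules, sample sets, a replicate block, and each rat left out. Replicate numbers were not taken to pair rats. Promoters were taken from RefSeq (GRCr8) by symbol.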

Additional observations from a re-analysis of the deposited data

Results flagged for a closer look

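For 20 genes of the list and for the mean of the 42 genes, each in the 4 groups, 84 groups of 5 rats were examined. In 4 of them 1 rat stood apart from the other 4 by Dixon's criterion, and chance alone gives about 1 such group in 20. Irf9 was lowest in sham-operated rat 2 at 7 d, at 6.097, where the next rat stood at 6.383, and without that rat the 7 d change of Irf9 did not pass the threshold (0.42, adjusted p = 0.132). Dhx58 was lowest in stimulated rat 4 at 30 d, at 4.409, with the next at 4.657. Zbp1 was highest in stimulated rat 2 at 30 d, at 4.531, with the next at 4.109. Tapbp was highest in sham-operated rat 1 at 7 d, at 5.633, with the next at 5.544.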

How the results depend on the processing

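The count of genes that rose at 7 d was 16 and lay between 11 and 20 when 1 rat was left out and between 11 and 17 under the other settings, and the count averaged over both times was 14, between 13 and 20 and between 12 and 18. The count at 30 d was 1. It was 6 with array weights and 0 with no filter, with only the groups compared, with quantile normalization on top of RMA and with unmoderated statistics, and leaving out 1 rat gave between 0 and 3. Between stimulated rats of both times, 5 genes were lower at 30 d, against 10 with array weights and 2 with array medians centred, no filter, only the groups compared or unmoderated statistics, and 1 to 13 with 1 rat left out. The count of genes higher at 30 d between stimulated rats was 1, against 0 with probe sets of a gene averaged, no filter, only the groups compared, the replicate block or unmoderated statistics, and 0 to 1 with 1 rat left out. The counts of genes that fell against controls, of the change between times and between sham rats stayed at 0 in each setting run. No change of a gene given in full that passed the threshold turned its direction. Centring array medians turned the calls over all probe sets at 7 d from 635 higher and 389 lower to 502 higher and 574 lower, while 15 of the 42 genes rose. The causes were not tested.

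With the replicate number as a block, 17 genes rose at 7 d, 1 at 30 d and 14 on average. Deviations of same-numbered rats from their group means correlated at -0.49 to 0.11 at 7 d and -0.12 to 0.15 at 30 d. Depth is limited by brightness: 11 of the 42 genes had a mean within 1 log2 unit of the background.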

Other observations

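Of the 16 measured genes of the constitutive proteasome, 2 were higher and 4 lower in stimulated rats of 30 d than in those of 7 d, with a median of 0.02, where 7.66% of all probe sets were higher and 5.87% lower, and 0 of the 16 were called against controls at 7 d or at 30 d. At 30 d Psmb5, a catalytic subunit, was 0.35 higher and Psme3, an activator subunit, 0.23 higher than at 7 d (adjusted p = 0.026 and 0.0184). Psma1, Psma5, Psma7 and the assembly factor Pomp were lower, Pomp falling by 0.42 (adjusted p = 0.0336) and Psma7 by 0.32 (adjusted p = 0.00707). Psma1, Psma7 and Psme3 were named after their values were seen. Sham-operated rats of both times differed in 0 of these genes at an adjusted p under 0.05 in limma, as in 0.0% of all probe sets. At an unadjusted p under 0.05 stood 4 of the 16, against 13.3% of all probe sets. The sham means of 7 d and 30 d moved in the same direction for Psmb5 (9.60 and 9.86), Psma5 (6.61 and 6.38) and Pomp (7.98 and 7.73). The stimulated means were 9.51 and 9.87, 6.75 and 6.44, and 8.22 and 7.80. In the change at 30 d minus the change at 7 d, 0 of the 16 genes were called.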
